A study of Homo sapiens with 21 samples.

Results

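The BCL2 family decides at the outer membrane of the mitochondrion whether a cell starts apoptosis, and transcripts of 10 of its genes were followed across 7 groups of a breast cancer cell line. The genes were BCL2, BCL2L1 and MCL1, which keep cells alive, BAX and BAK1, which open the membrane, and BCL2L11, BBC3, PMAIP1, BID and BIK, which push towards opening. They were found by matching the Ensembl identifiers of the deposited count tables, with the version dropped, to these 10 symbols. Each symbol matched 1 identifier in each table, so 10 of the 60668 identifiers are described.

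Family members bind each other through short shared stretches, the BH domains. BCL2, BCL2L1 (whose long form is the protein BCL-XL) and MCL1 hold the others in check. BAX and BAK1 are the effectors that form pores and let cytochrome c out, after which caspases dismantle the cell. The BH3-only proteins BCL2L11 (BIM), BBC3 (PUMA), PMAIP1 (NOXA), BID and BIK carry stress signals by binding either class, and PMAIP1 is known for binding MCL1. MYC, besides driving growth, is known to sensitise cells to apoptosis. Several family genes, BCL2L1 and MCL1 among them, make isoforms of opposite function by alternative splicing, and gene-level counts such as these add the isoforms of a gene together.

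The cells were HCC1806, an established line from a triple-negative breast cancer with basal features, grown as an adherent culture in medium with serum. In one of the tables, 3 libraries each came from control cells (3xCTL), from cells titled 3xSR, which the series title describes as overexpressing the splicing factors SRSF2, SRSF3 and SRSF7, and from cells overexpressing MYC (MYC-OE). The other table held 3 libraries each of a single-plasmid control (1xCtrl) and of 3 lines labelled as overexpressing a single one of these factors (SRSF7-OE, SRSF3-OE and SRSF2-OE). The promoter that drove each gene, the plasmids of 3xCTL, 3xSR and MYC-OE, and whether a line was a single clone are not given in the sources used here. No label says that the libraries of a group came from separate cultures, so p-values measure the spread between these libraries, which may be technical.

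Total counts ran from 143269192 to 303323552 per library, and members had from 93 to 50954 counts. Levels are CPM, counts scaled to a common library size by TMM within each table, so levels of different tables are set side by side only as descriptions. Tests were edgeR's quasi-likelihood F test with Benjamini-Hochberg adjustment over all genes tested. A gene is said to rise or fall where its adjusted p was under 0.05. SRSF3, SRSF7 and MYC were each higher in the lines named for them (log2 changes in SRSF3-OE, SRSF7-OE and MYC-OE of 0.49, 0.26 and 0.90). SRSF2 was not: it changed by -0.16 ± 0.0640 (SE) in the libraries labelled SRSF2-OE (adjusted p 0.0980) and by -0.06 ± 0.0516 in those labelled 3xSR (adjusted p 0.389). Directions in both groups are therefore given for the libraries under their labels. SRSF3 and SRSF7 rose by 0.31 and 0.44 on the log2 scale in 3xSR. These genes also changed in lines not named for them. MYC rose by 0.75 in 3xSR, and by 0.26 in SRSF3-OE and 0.27 in SRSF7-OE, the calls in the single lines being lost in 8 and 5 of 17 alternative analyses. SRSF3 and SRSF7 rose by 0.30 and 0.24 in the libraries labelled SRSF2-OE, and SRSF2 fell by 0.48 in MYC-OE and 0.38 in SRSF7-OE. The 10 epithelial markers checked were KRT5, KRT14, KRT17, KRT6A, TP63, EGFR, EPCAM, CDH1, KRT8 and KRT18. All were at 1 CPM or more in every library, with a sum between 5698 and 7261 CPM. EPCAM, CDH1, KRT8 and KRT18 are not particular to basal cells, so this sum does not measure basal identity. The sums were 15.3 to 49.7 CPM for fibroblast markers, mostly LUM and COL1A1. They were 6.13 to 36.5 CPM for leukocyte markers, nearly all CD68, and 0.137 to 1.28 CPM for endothelial markers. The receptor genes ESR1, PGR and ERBB2 were checked too, as the line is described as triple-negative. Their sum was 107 to 191 CPM, mostly ERBB2, which ran from 99.6 to 184 CPM. ESR1 ran from 6.49 to 11.5 CPM, and PGR reached at most 1.46 CPM, in 1xCtrl replicate 1. Receptor proteins were not measured, so the triple-negative status was not tested.

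Control libraries stood apart within both tables. The GC gap, the log2 difference between the GC-richest and GC-poorest 10% of genes in a library's deviation from the mean of its own table of libraries, was 0.66 in 1xCtrl replicate 2 and -0.22 and -0.45 in the other 1xCtrl libraries. In 3xCTL it was -0.37 in replicate 2 and 0.28 and 0.24 in the others. The gap was also shared within groups, from -0.40 to -0.22 in 3xSR and from 0.21 to 0.38 in MYC-OE. Transcripts of BBC3, BAX, BAK1, BCL2L1 and BIK are rich in G and C (69.7%, 58.9%, 58.8%, 56.9% and 56.0%), and those of PMAIP1 and MCL1 are the poorest of the 10 (37.2% and 45.1%). Values without these libraries, and with the trend removed, are given where they change a call.

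**Figure D1:**
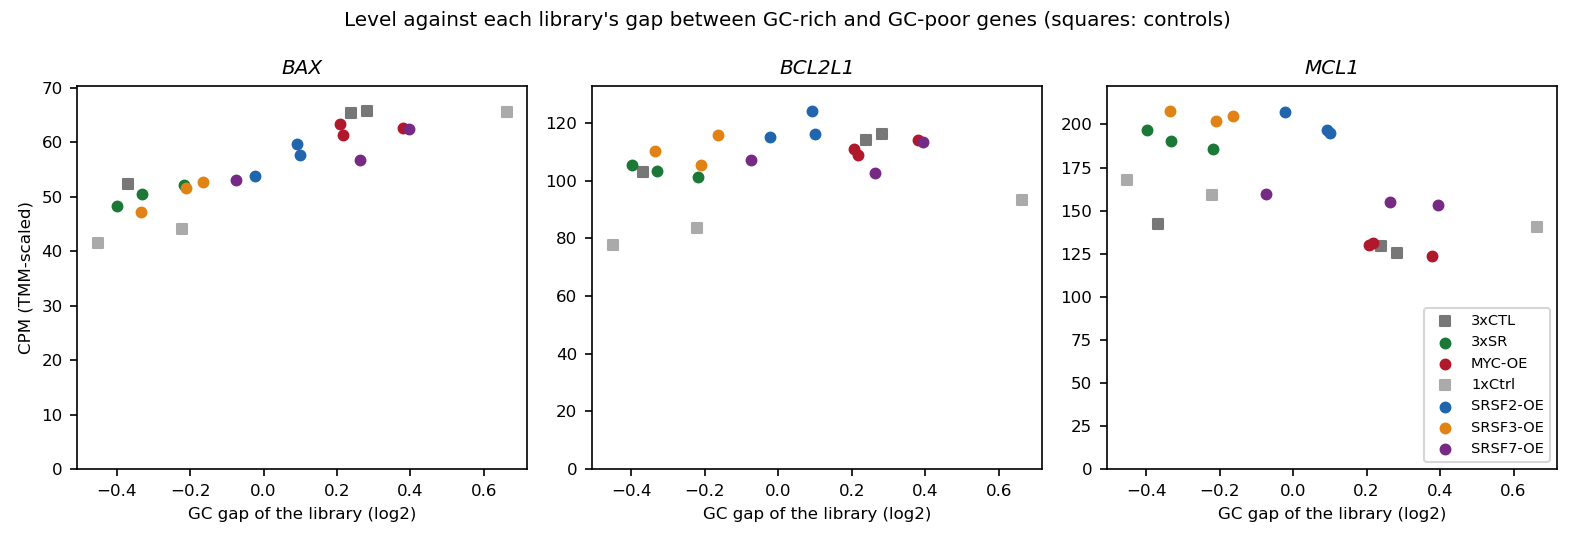
Levels of BAX, BCL2L1 and MCL1 (CPM, 1 panel each) against the GC gap (log2) of each of the 21 libraries, coloured by group, with squares for controls. 1xCtrl replicate 2 has the highest gap, 0.66, and a BAX level of 65.5 CPM against 44.1 and 41.5 CPM in the other 1xCtrl libraries.

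Promoter sequences from RefSeq (GRCh38.p14, 250 bases before to 50 after a gene's start) were matched for 8 of the 10 genes, in 13 windows, and searched on both strands for CACGTG, the E-box that MYC with its partner MAX is known to bind. The motif stood in 4 of these 13 windows, which belong to 3 genes, BAX, BBC3 and BID, and in 7.26% of all 35116 windows. The BAX window held 4 copies, starting 138, 93, 45 and 14 bases before the RefSeq start. BBC3 held 1 copy at 232 bases before the start, and BID 1 copy in each of 2 alternative windows, at 106 and at 47 bases. These 2 windows overlap and hold the same copy. The stretches of BAX (chr19:48954625-48954814, plus strand) and BBC3 (chr19:47232767-47232917, minus strand) that lie before every start annotated in GENCODE 29 are shown because MYC was raised in MYC-OE and both hold the motif. They are written 5′ to 3′ with E-boxes in capitals. The BAX copies at 45 and 14 bases lie past the first start annotated in GENCODE 29, so they are not in the printed stretch.
BAX: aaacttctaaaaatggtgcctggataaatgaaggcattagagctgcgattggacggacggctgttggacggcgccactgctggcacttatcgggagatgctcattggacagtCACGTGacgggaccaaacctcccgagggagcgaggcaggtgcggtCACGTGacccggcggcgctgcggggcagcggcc
BBC3: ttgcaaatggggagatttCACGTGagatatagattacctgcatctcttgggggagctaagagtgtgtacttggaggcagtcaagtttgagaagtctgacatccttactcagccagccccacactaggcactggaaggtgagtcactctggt
A match describes these letters and is not a measured binding site. In MYC-OE, BBC3 rose and BAX and BID did not pass the test, as the values for each gene show. MYC also rose in 3xSR, where BAX fell and BBC3 and BID did not pass. PMAIP1, which rose in both lines, held no copy in its window, and BIK, which rose in MYC-OE, had no window. Whether MYC acts through these motifs was not tested.

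Scaled per kilobase of merged exons and over both tables together, MCL1 and BCL2L1 were the most abundant members, with medians over the 21 libraries of 36.5 and 32.9 CPM per kb. BAX (20.8) and BAK1 (15.8) followed. BID (6.35), PMAIP1 (4.20), BIK (2.84) and BCL2L11 (1.88) were lower, BCL2 had 0.692 CPM per kb and BBC3 0.312. The ranges of most neighbours in this order overlapped, as for MCL1 (28.3 to 47.5) and BCL2L1 (23.4 to 37.5). BCL2L1 also overlapped BAX (16.0 to 25.4), and BAX overlapped BAK1 (11.5 to 17.8). Only BAK1 and BID (4.83 to 7.19), and BCL2L11 (1.63 to 2.215) and BCL2 (0.433 to 0.838), were neighbours without overlap. BCL2, the founding member, thus stood near the bottom of the order in these cells.

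Of the 50 tests of a member against the control of the same table, 18 passed, 15 of them upward. In 3xSR 2 members rose and 1 fell, where 15.3% of all genes tested rose and 13.7% fell (29.0% together). In MYC-OE 3 rose and 1 fell, beside 18.0% and 17.3% of all genes (35.3%). SRSF7-OE had 3 rises, beside 9.03% of genes up and 8.26% down (17.3%). SRSF3-OE had 4 rises and 1 fall, beside 15.0% and 14.1% (29.2%), and the libraries labelled SRSF2-OE 3 rises, beside 11.6% and 11.9% (23.5%). Each of these shares rests on a few genes, and none is read as particular to the family. The median log2 change of the 10 was -0.04 in 3xSR, 0.02 in MYC-OE, 0.20 in SRSF7-OE, 0.20 in SRSF3-OE and 0.19 in SRSF2-OE, against medians of all genes between -0.0251 and -0.00383. The same controls served several lines, so the comparisons within a table are not independent of each other.

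**Figure D2:**
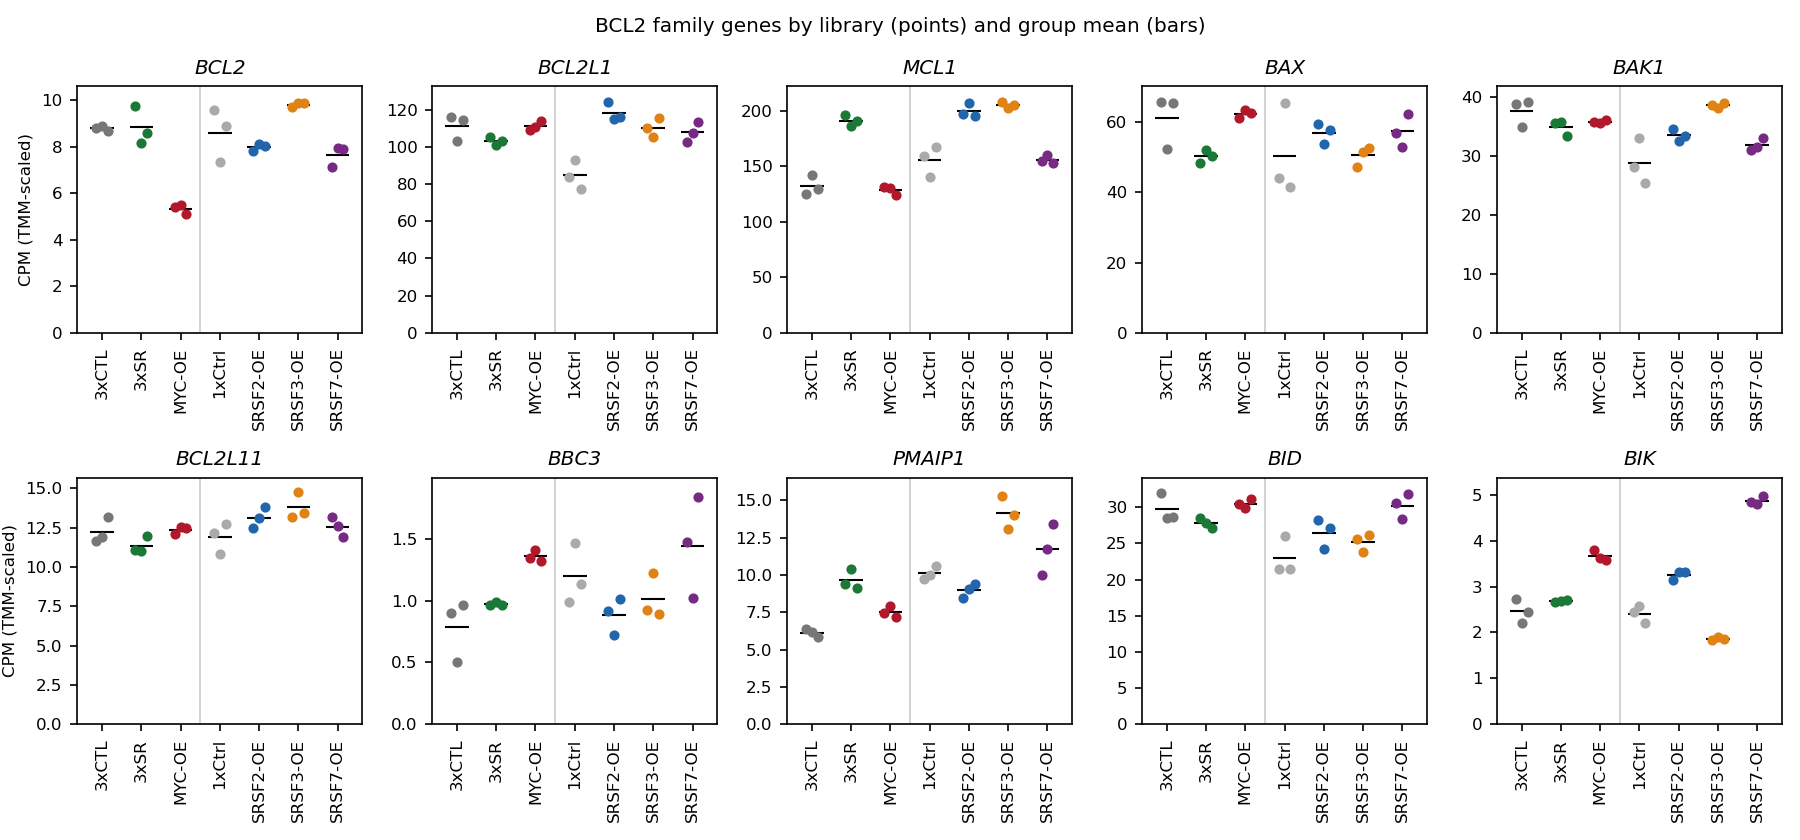
Level of each of the 10 genes (CPM, linear axes from 0) in the 3 libraries of each of 7 groups, points for libraries and bars for group means. BCL2 is lowest in MYC-OE (5.10 to 5.50 CPM) and BIK highest in SRSF7-OE (4.80 to 4.96 CPM).

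MCL1 is a short-lived survival protein whose gene lies at chr1:150574551-150579738 (GRCh38, minus strand). It measured 125, 142 and 129 CPM in 3xCTL and 197, 186 and 191 CPM in 3xSR. It rose there by 0.53 ± 0.0563 (log2 change ± SE, adjusted p 2.86e-05), with all 3xSR libraries above all controls. In MYC-OE it measured 131, 130 and 124 CPM, within the range of the controls apart from the lowest library (-0.04 ± 0.0562, adjusted p 0.599). The other table had 159, 140 and 168 CPM in 1xCtrl. MCL1 rose in the libraries labelled SRSF2-OE, which had 197, 207 and 195 CPM (0.36 ± 0.0642, adjusted p 0.00140). It rose in SRSF3-OE, with 208, 202 and 205 CPM (0.40 ± 0.0642, adjusted p 0.000474). SRSF7-OE, with 155, 160 and 153 CPM, stayed inside the range of its control (0.00 ± 0.0641, adjusted p 0.983). All 3 rises kept their call in every alternative analysis.

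BCL2L1 encodes BCL-XL and lies at chr20:31664452-31723989 (minus strand). It was at 83.6, 93.1 and 77.6 CPM in 1xCtrl and rose in all 3 single lines. The libraries labelled SRSF2-OE had 124, 115 and 116 CPM (0.48 ± 0.0722, adjusted p 0.000429). SRSF3-OE had 110, 105 and 116 CPM (0.38 ± 0.0722, adjusted p 0.00141), and SRSF7-OE 103, 107 and 113 CPM (0.35 ± 0.0721, adjusted p 0.00589). No library of a single line was as low as the highest control library. The SRSF3-OE call was lost without 1xCtrl replicate 1 (adjusted p 0.0507) or SRSF3-OE replicate 3 (0.0582). The SRSF7-OE call was lost with only its own groups in the fit (0.0535) and without 1xCtrl replicate 1 (0.0854) or 3 (0.0568), or SRSF7-OE replicate 2 (0.0530) or 3 (0.0747).

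In the first table BCL2L1 did not follow this pattern. It had 116, 103 and 114 CPM in 3xCTL, 105, 101 and 103 CPM in 3xSR (-0.11 ± 0.0539, adjusted p 0.170) and 109, 111 and 114 CPM in MYC-OE (0.00 ± 0.0539, adjusted p 0.979). Without 3xCTL replicate 2 it was lower in 3xSR by the test (-0.16, adjusted p 0.0100), while with the GC trend removed the change was 0.04 (adjusted p 0.480). With all libraries scaled together, 3xCTL had 111 ± 7.12 CPM and 1xCtrl 85.1 ± 8.95 CPM (SD, n = 3), with no overlap. The control line and the table differ together in that comparison and cannot be told apart. An antisense gene, ABALON, shares 1424 of the 3314 exon bases of BCL2L1 and had at most 136 counts, against at least 14745 for BCL2L1. The strand setting of the counting is not given, so reads of the 2 genes may not be separated.

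BCL2, the family's first known survival gene, lies at chr18:63123346-63320128 (minus strand) and changed in 1 line. It measured 8.80, 8.89 and 8.65 CPM in 3xCTL and 5.40, 5.50 and 5.10 CPM in MYC-OE. The fall was 0.72 on the log2 scale (SE 0.0846, adjusted p 4.38e-05), every MYC-OE library lay below every other library of its table, and the call held in every alternative. The 3xSR libraries (9.74, 8.14 and 8.59 CPM) spread around the control, with a log2 change of 0.01 ± 0.0841 (adjusted p 0.966). The second table had 9.55, 7.35 and 8.88 CPM in 1xCtrl, 7.81, 8.11 and 8.01 CPM in SRSF2-OE and 7.12, 7.92 and 7.90 CPM in SRSF7-OE. SRSF3-OE had 9.69, 9.86 and 9.86 CPM, all above the controls, but did not pass the test (0.19 ± 0.0959, adjusted p 0.164). Without 1xCtrl replicate 2, the lowest control, BCL2 was lower in SRSF7-OE by the test (-0.26, adjusted p 0.0243).

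BAX, the effector that moves from the cytosol to the mitochondrion, lies at chr19:48954815-48961798 (plus strand). It had 65.8, 52.3 and 65.4 CPM in 3xCTL and 48.3, 52.1 and 50.4 CPM in 3xSR, a fall of 0.28 on the log2 scale (SE 0.0785, adjusted p 0.0179). The lowest control, replicate 2, was within 1 CPM of the highest 3xSR library. With the GC trend removed the change was -0.09 (adjusted p 0.0634). The call was also lost without 3xCTL replicate 1 (0.0761) or 3 (0.0758), or 3xSR replicate 1 (0.0721) or 3 (0.0568). MYC-OE had 61.3, 63.4 and 62.7 CPM and did not pass the test (0.03 ± 0.0783, adjusted p 0.799).

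In the second table BAX was at 44.1, 65.5 and 41.5 CPM in 1xCtrl, the widest spread of any member within a group relative to its level apart from BBC3. It was at 59.6, 53.8 and 57.8 CPM in SRSF2-OE, 47.2, 51.7 and 52.8 CPM in SRSF3-OE and 56.8, 53.1 and 62.5 CPM in SRSF7-OE. None of the 3 single lines passed the test (adjusted p 0.429, 0.989 and 0.423). Without 1xCtrl replicate 2 all 3 did, upward, with log2 changes of 0.44 in SRSF7-OE (adjusted p 0.00121), 0.41 in SRSF2-OE (0.00146) and 0.23 in SRSF3-OE (0.0417). With the GC trend removed and all libraries kept they were 0.15 (0.0495), 0.22 (0.00590) and 0.16 (0.0342), and with the replicate block as well SRSF7-OE and SRSF3-OE no longer passed (0.0757 and 0.0539).

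BAK1, the effector that resides on the mitochondrion, lies at chr6:33572547-33580293 (minus strand). In 1xCtrl it was at 28.2, 33.1 and 25.5 CPM. It rose in SRSF3-OE, with 38.8, 38.1 and 39.1 CPM, by 0.42 ± 0.0809 (adjusted p 0.00162), and all SRSF3-OE libraries lay above all controls. That call was lost without 1xCtrl replicate 1 (adjusted p 0.0557) and with only the 2 groups in the fit (0.0548). SRSF2-OE had 34.7, 32.7 and 33.4 CPM (0.22 ± 0.0808, adjusted p 0.0709) and SRSF7-OE 31.0, 31.5 and 33.1 CPM (0.14 ± 0.0808, adjusted p 0.265). Without 1xCtrl replicate 2, the highest control, both passed (0.32, adjusted p 0.00132, and 0.26, adjusted p 0.00568). SRSF2-OE also passed with the GC trend removed (0.24, adjusted p 0.00201).

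The first table had 39.0, 34.9 and 39.3 CPM of BAK1 in 3xCTL, 35.6, 35.8 and 33.4 CPM in 3xSR and 35.8, 35.6 and 36.1 CPM in MYC-OE. Neither line passed the test (-0.11 ± 0.0573, adjusted p 0.171, and -0.07 ± 0.0572, adjusted p 0.352). Without 3xCTL replicate 2, the lowest control, both were lower by the test (-0.16, adjusted p 0.0133, and -0.13, adjusted p 0.0489). The change in 3xSR was 0.07 with the GC trend removed (adjusted p 0.249). In both control lines replicate 2 was the library farthest from the others for BAX and for BAK1.

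PMAIP1 (NOXA), a BH3-only gene known to be induced by p53 and by stress, lies at chr18:59899948-59904306 (plus strand). It was at 6.35, 6.19 and 5.84 CPM in 3xCTL and at 9.39, 10.4 and 9.14 CPM in 3xSR, a rise of 0.66 ± 0.0825 (adjusted p 0.000109) with no overlap. MYC-OE, with 7.46, 7.90 and 7.15 CPM, rose by 0.29 ± 0.0822 (adjusted p 0.0156). The MYC-OE call was lost without 3xCTL replicate 3 (adjusted p 0.0540) or MYC-OE replicate 2 (0.0675), though the groups did not overlap.

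Among the single lines PMAIP1 rose in SRSF3-OE, from 9.76, 9.99 and 10.6 CPM in 1xCtrl to 15.3, 13.1 and 14.0 CPM (0.48 ± 0.104, adjusted p 0.00351). SRSF7-OE had 9.99, 11.7 and 13.4 CPM (0.21 ± 0.104, adjusted p 0.189). SRSF2-OE had 8.44, 9.07 and 9.39 CPM, all below the controls, and did not pass the test (-0.17 ± 0.104, adjusted p 0.267). The rises in 3xSR and SRSF3-OE kept their call in every alternative. On the joint scale PMAIP1 was lower in 3xCTL (6.15 ± 0.262 CPM) than in 1xCtrl (10.1 ± 0.374 CPM, SD, n = 3), again with control line and table changing together.

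BIK, the first described BH3-only gene and one whose protein resides at the endoplasmic reticulum, lies at chr22:43110748-43129712 (plus strand) and was called in 4 of the 5 lines. In SRSF7-OE it was at 4.85, 4.80 and 4.96 CPM against 2.45, 2.58 and 2.20 CPM in 1xCtrl, a rise of 1.01 ± 0.0973 (adjusted p 4.70e-05) and the largest change of any member in any line. The libraries labelled SRSF2-OE had 3.14, 3.32 and 3.32 CPM (0.43 ± 0.0968, adjusted p 0.00565). SRSF3-OE went the other way, with 1.84, 1.89 and 1.87 CPM, a fall of 0.37 on the log2 scale (SE 0.0974, adjusted p 0.0111). None of the 3 lines overlapped the control. With only the groups compared in the fit the SRSF2-OE and SRSF3-OE calls were lost (adjusted p 0.0709 and 0.0609).

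MYC-OE also had more BIK, with 3.80, 3.61 and 3.58 CPM against 2.73, 2.20 and 2.46 CPM in 3xCTL (0.57 ± 0.107, adjusted p 0.00127). The 3xSR libraries, at 2.65, 2.68 and 2.70 CPM, lay within the range of the control (0.12 ± 0.107, adjusted p 0.434). The rises in MYC-OE and SRSF7-OE kept their call in every alternative.

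BBC3 (PUMA), a p53 target that binds every survival member, lies at chr19:47220822-47232766 (minus strand) and was the rarest member, with 93 to 581 counts. It rose in MYC-OE, from 0.900, 0.502 and 0.966 CPM in 3xCTL to 1.34, 1.41 and 1.32 CPM (0.78 ± 0.210, adjusted p 0.0122), with no overlap and in every alternative. Its level of 0.502 CPM in 3xCTL replicate 2 was the lowest of its table. In 3xSR it had 0.965, 0.989 and 0.964 CPM (0.30 ± 0.211, adjusted p 0.322), and the value moved with the processing: 0.63 with the GC trend removed (adjusted p 0.00431, a call), and 0.0606 without 3xCTL replicate 2 (adjusted p 0.798).

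In the second table the spread of BBC3 within groups was wide. The 1xCtrl libraries had 0.992, 1.46 and 1.13 CPM, SRSF2-OE 0.919, 0.724 and 1.01 CPM, SRSF3-OE 0.925, 1.22 and 0.888 CPM and SRSF7-OE 1.47, 1.02 and 1.83 CPM. All 3 lines overlapped the control, and none passed the test (adjusted p 0.202, 0.477 and 0.472). In SRSF7-OE the log2 change of 0.27 turned to -0.08 with the GC trend removed (adjusted p 0.810).

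BID, which links death receptors to mitochondria after cleavage by caspase-8, lies at chr22:17734138-17774770 (minus strand). It was at 21.5, 26.0 and 21.5 CPM in 1xCtrl and rose in SRSF7-OE to 30.6, 28.3 and 31.8 CPM (0.40 ± 0.0879, adjusted p 0.00834). That call was lost with only the 2 groups in the fit (adjusted p 0.0563) and without 1xCtrl replicate 1 (0.115) or 3 (0.0713), or SRSF7-OE replicate 1 (0.0807) or 3 (0.0867). SRSF2-OE had 28.2, 24.2 and 27.1 CPM (0.21 ± 0.0879, adjusted p 0.115) and passed without 1xCtrl replicate 2 (0.30, adjusted p 0.0126). SRSF3-OE had 25.6, 23.8 and 26.2 CPM (0.13 ± 0.0879, adjusted p 0.296).

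In the first table BID had 32.0, 28.5 and 28.7 CPM in 3xCTL, 28.6, 27.8 and 27.1 CPM in 3xSR and 30.5, 29.9 and 31.2 CPM in MYC-OE. Both lines overlapped the control and neither passed (-0.09 ± 0.0574, adjusted p 0.245, and 0.04 ± 0.0572, adjusted p 0.660).

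BCL2L11 (BIM), a strong binder of all survival members, lies at chr2:111119378-111168447 (plus strand) and was called in no line. Its 21 values ran from 10.8 CPM in 1xCtrl replicate 2 to 14.7 CPM in SRSF3-OE replicate 2. The log2 changes were -0.11 in 3xSR, 0.01 in MYC-OE, 0.07 in SRSF7-OE, 0.21 in SRSF3-OE and 0.14 in SRSF2-OE, with SE between 0.0719 and 0.0829 and adjusted p from 0.0752 to 0.902. The unadjusted p was under 0.05 in SRSF3-OE only (0.0249), and no alternative, DESeq2 and limma-voom included, called it against a control. SRSF3-OE, at 13.2, 14.7 and 13.4 CPM, lay above its control (12.2, 10.8 and 12.7 CPM) without passing. The antisense gene MIR4435-2HG, with 6603 to 13670 counts, shares 727 of the 6658 exon bases of BCL2L11, which had 1711 to 3769 counts, so some of these reads may belong to either gene.

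**Figure D3:**
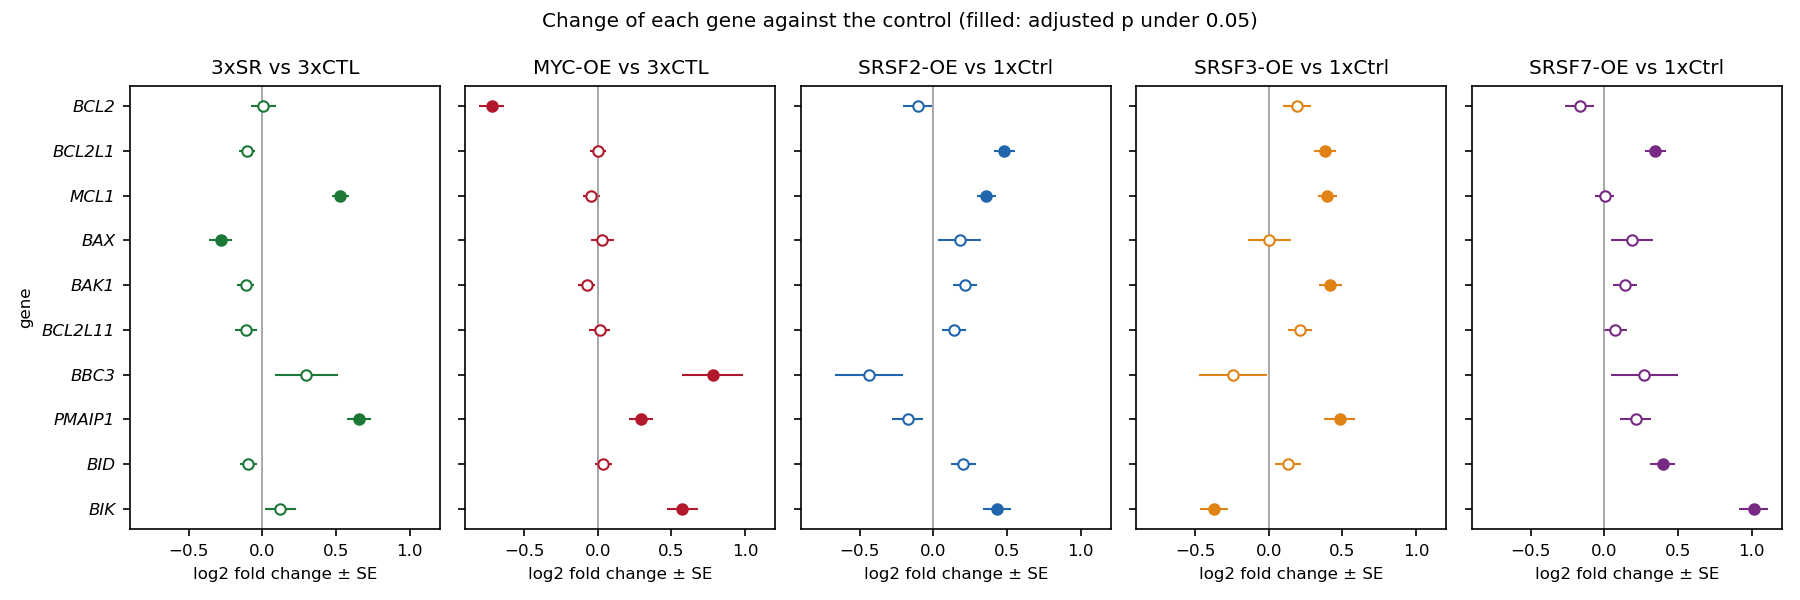
Log2 change of each gene against the control of its table in the 5 lines, with bars of 1 SE, filled where the adjusted p was under 0.05. Filled points lie to the right of 0 except for BAX in 3xSR, BCL2 in MYC-OE and BIK in SRSF3-OE.

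Lines of the same table were also compared directly. MYC-OE had less BCL2 (-0.73 ± 0.0847, adjusted p 6.73e-05), less MCL1 (-0.57 ± 0.0563, adjusted p 2.04e-05) and less PMAIP1 (-0.36 ± 0.0821, adjusted p 0.00492) than 3xSR. It had more BAX (0.31 ± 0.0785, adjusted p 0.00882) and more BIK (0.45 ± 0.107, adjusted p 0.00634). These 5 of 10 members compare with 34.9% of all genes called. The GC gaps of these lines do not overlap, and with the trend removed PMAIP1 lost its call (-0.12, adjusted p 0.265). BAK1, which did not differ by the test at first (0.04), then became lower in MYC-OE (-0.17, adjusted p 0.00999). BAX kept its call in every alternative, with changes from 0.10 to 0.35.

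SRSF3-OE and SRSF7-OE differed most in BIK, which was lower in SRSF3-OE by 1.39 on the log2 scale (value -1.39 ± 0.0983, adjusted p 3.91e-07). SRSF3-OE had more MCL1 (0.39 ± 0.0642, adjusted p 0.000371) and more BCL2 (0.36 ± 0.0959, adjusted p 0.0104). BAK1 (0.28, adjusted p 0.0162) and BID (-0.26, adjusted p 0.0325) were also called, but each lost its call in 8 of 17 alternatives. Here 5 of 10 members compare with 35.2% of all genes.

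The libraries labelled SRSF2-OE had more BIK than SRSF3-OE (0.81 ± 0.0975, adjusted p 6.67e-05), less PMAIP1 (-0.66 ± 0.105, adjusted p 0.000542) and less BCL2 (-0.30 ± 0.0959, adjusted p 0.0358, lost in 5 of 17 alternatives). These 3 members compare with 26.8% of all genes. Against SRSF7-OE they had more MCL1 (0.36 ± 0.0642, adjusted p 0.00140) and less BIK (-0.58 ± 0.0964, adjusted p 0.000803) and PMAIP1 (-0.39 ± 0.104, adjusted p 0.0162). The PMAIP1 call was lost without SRSF2-OE replicate 1 (0.0583) or SRSF7-OE replicate 3 (0.0763). BBC3 was lower as well (-0.71 ± 0.230, adjusted p 0.0393, lost in 8 of 17 alternatives), so 4 members were called against 24.2% of all genes. BIK was thus different between every pair of single lines, in the order SRSF3-OE, SRSF2-OE, SRSF7-OE, with no overlap between neighbours.

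Whether a gene responded differently in 3xSR than in a single line was tested in a joint fit over all 21 libraries, each line against its own control. Of the 10 members, 3 were called against the SRSF2-OE effect (21.9% of all 25013 genes tested), 4 against the SRSF3-OE effect (17.8%) and 5 against the SRSF7-OE effect (24.6%). BCL2L1 was called against each of the 3, with a lower change in 3xSR. MCL1 was called against SRSF7-OE and PMAIP1 against SRSF2-OE and SRSF7-OE, with a higher change in 3xSR each time. With the GC trend removed, MCL1 was also called against SRSF2-OE (0.16, adjusted p 0.00884) and SRSF3-OE (0.13, adjusted p 0.0263).

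The abundance of each class was summed per kilobase and taken as a share of the 10 genes, as a description without a test. Survival genes held 54.1% ± 2.13 (SD, n = 3) in 3xCTL, 59.9% ± 1.11 in 3xSR and 52.8% ± 0.172 in MYC-OE. In the second table they held 57.0% ± 4.12 in 1xCtrl, 55.1% ± 1.29 in SRSF7-OE, 60.3% ± 0.494 in SRSF3-OE and 60.8% ± 1.06 in SRSF2-OE. Effectors held 34.0% ± 2.10 in 3xCTL, 27.9% ± 0.871 in 3xSR and 33.6% ± 0.253 in MYC-OE, and 29.7% ± 4.35 in 1xCtrl, 29.3% ± 0.981 in SRSF7-OE, 27.5% ± 0.797 in SRSF3-OE and 27.6% ± 0.839 in SRSF2-OE. BH3-only genes held 11.8% ± 0.379 in 3xCTL, 12.2% ± 0.244 in 3xSR and 13.6% ± 0.0859 in MYC-OE. They held 13.2% ± 0.305 in 1xCtrl, 15.6% ± 0.339 in SRSF7-OE, 12.2% ± 0.319 in SRSF3-OE and 11.6% ± 0.421 in SRSF2-OE. The wide spread of 1xCtrl comes with replicate 2, where survival genes held 52.3% and effectors 34.7%, the lowest and the highest share of that control.

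**Figure D4:**
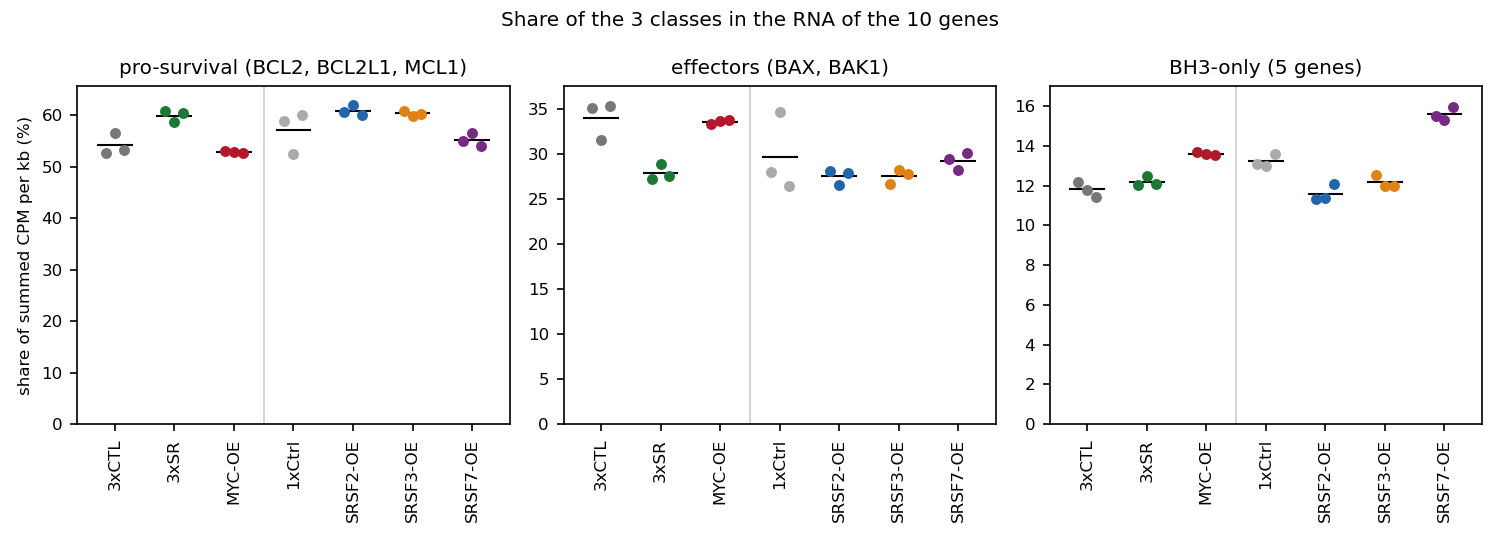
Share of each class in the summed per-kilobase level of the 10 genes (percent, axes from 0), points for libraries and bars for group means. Survival genes hold 58.6% to 60.8% in the 3xSR libraries and 52.6% to 53.0% in those of MYC-OE, and BH3-only genes hold their highest shares in SRSF7-OE (15.3% to 16.0%).

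For each member, the 2 genes with the most similar profile over the 21 libraries were found among 11307 genes at 5 CPM or more, as log2 CPM minus the control mean of the same table. These values of Pearson's r are descriptions, since libraries share groups, controls and GC content. BCL2 was closest to EID2 (0.965) and ZNF770 (0.963), and MCL1 to HMGA2 (0.965) and TRA2B (0.962), a gene of a splicing factor related to SR proteins. BCL2L1 was closest to S100A16 (0.969) and TRAPPC2L (0.967), BAX to PDXK (0.974) and FLII (0.971), and BAK1 to WDR46 (0.971) and PGAM5 (0.969). PMAIP1 was closest to SYT14 (0.923) and STK38L (0.913), BIK to BEX3 (0.953) and HHLA3 (0.933), BID to HOXB7 (0.954) and RPL8 (0.932), and BBC3 to SLC27A1 (0.927) and GRAMD1A (0.916). The nearest genes of BCL2L11, which was called in no line against its control, were less close, ALG14 at 0.844 and TMEM97 at 0.837.

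Relatives of these genes outside the 10 were listed too. The counts of this and the following lists stand beside the shares of all genes given above, and nothing is read as particular to a list. Of 13 such family genes, 4 rose and 4 fell in 3xSR, 4 rose and 3 fell in MYC-OE, 2 rose in SRSF2-OE, 1 rose and 1 fell in SRSF3-OE, and 4 rose and 1 fell in SRSF7-OE. BNIP3, a hypoxia-induced mitochondrial protein known for its role in mitophagy, rose in all 5 lines, most in MYC-OE (33.5 ± 1.59 CPM against 12.9 ± 0.308 CPM, SD, n = 3, log2 change 1.37 ± 0.0607) and least in SRSF2-OE (0.34 ± 0.0690). HRK, a BH3-only gene, rose in 4 lines from a level under 1 CPM in both controls, by 0.91 in 3xSR, 0.70 in MYC-OE, 0.70 in SRSF2-OE and 0.99 in SRSF7-OE, and had a log2 change of 0.06 in SRSF3-OE (adjusted p 0.879). BMF, a BH3-only gene linked to the cytoskeleton, fell in 3xSR by 0.98, in MYC-OE by 0.49 and in SRSF3-OE by 0.79. BCL2L2, the survival gene of BCL-W, fell in 3xSR by 0.30 and in MYC-OE by 0.52. BCL2L15, from under 1 CPM in both controls, fell by 1.39 in MYC-OE, by 1.20 in SRSF7-OE and by 0.91 in 3xSR, the last call being lost in 3 of 17 alternatives. BCL2L10 was called in 3xSR on at most 33 counts, and BCL2A1 had at most 15 counts in any library. The BMF call in MYC-OE was lost in 3 of 17 alternatives, the HRK call in SRSF2-OE in 4 and the BCL2L10 call in 6 of 15. The list's median log2 change was -0.18 in 3xSR, 0.34 in MYC-OE, 0.34 in SRSF7-OE, 0.06 in SRSF3-OE and 0.17 in SRSF2-OE.

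Downstream of the membrane, among 11 genes of the apoptosome and caspases, 1 fell in 3xSR, 1 rose and 3 fell in MYC-OE, 3 rose and 2 fell in SRSF2-OE, and 4 rose and 2 fell in SRSF3-OE. In SRSF7-OE edgeR called 0 of the 11, of which 2 had an unadjusted p under 0.05, limma-voom called 0 and DESeq2 1. CASP10, an initiator caspase, fell in 4 lines, most in SRSF3-OE (7.17 ± 0.119 CPM against 11.8 ± 1.66 CPM, a fall of 0.71 on the log2 scale, SE 0.102). CASP6, also a caspase, rose by 0.29 in SRSF2-OE and 0.26 in SRSF3-OE. CYCS, the gene of cytochrome c, fell by 0.54 in MYC-OE and rose by 0.37 in SRSF3-OE. HTRA2, a mitochondrial protease, rose by 0.22 in MYC-OE. DIABLO, whose protein neutralises inhibitors of apoptosis, rose by 0.40 in SRSF3-OE and 0.25 in SRSF2-OE. The CASP10 call in MYC-OE was lost in 5 of 17 alternatives, the CASP6 call in SRSF3-OE in 8, that of DIABLO in SRSF2-OE in 4, and those of CASP6 in SRSF2-OE and HTRA2 in 2 each. Medians of the list lay between -0.01 and 0.05 in the 5 lines.

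Of 7 inhibitors of apoptosis, 6 could be tested, BIRC7 being too low. In 3xSR 3 rose and 1 fell, in MYC-OE and SRSF2-OE 2 fell, in SRSF3-OE 1 rose and 1 fell, and in SRSF7-OE 1 fell. BIRC3, which encodes cIAP2, rose in 3xSR by 1.07 ± 0.0926 and in SRSF3-OE by 0.85 ± 0.0994, and fell by 0.83 in SRSF2-OE. NAIP fell in MYC-OE, SRSF3-OE and SRSF7-OE, by 0.59, 0.86 and 0.78. XIAP, which binds caspases directly, fell by 0.29 in MYC-OE and 0.27 in SRSF2-OE and rose by 0.23 in 3xSR, a rise lost in 6 of 17 alternatives. BIRC5, known as survivin, fell by 0.25 in 3xSR. The median of the 6 was 0.15 in 3xSR, -0.13 in MYC-OE, -0.02 in SRSF7-OE, 0.12 in SRSF3-OE and -0.24 in SRSF2-OE. Among 9 genes of the death receptor pathway, 3 rose and 1 fell in 3xSR, 4 rose in MYC-OE, 3 rose and 3 fell in both SRSF2-OE and SRSF3-OE, and 1 rose and 1 fell in SRSF7-OE. TNFRSF10B, a receptor for TRAIL, rose by 0.51 in 3xSR, 0.49 in MYC-OE and 0.32 in SRSF3-OE. TNFRSF10A, the other death receptor for TRAIL, rose by 0.35 in 3xSR, 0.19 in MYC-OE, 0.34 in SRSF3-OE and 0.21 in SRSF2-OE, the last call being lost in 10 of 17 alternatives. TNFSF10, the gene of TRAIL itself, fell by 0.44 in SRSF2-OE and 0.36 in SRSF3-OE and rose by 0.46 in MYC-OE. FADD, the adaptor that recruits caspase-8, rose by 0.35 in SRSF2-OE and 0.24 in SRSF7-OE and fell by 0.17 in 3xSR. With the GC trend removed the FADD change in 3xSR was 0.00488 (adjusted p 0.965). TRADD, also an adaptor, fell by 0.39 in SRSF3-OE, in 5 of 17 alternatives without a call. CFLAR, a decoy of caspase-8, rose by 0.40 in 3xSR and 0.32 in SRSF3-OE and fell by 0.24 in SRSF7-OE, the last call being lost in 1 of 17. The FADD calls were lost in 6 of 17 in 3xSR and 9 of 17 in SRSF7-OE. The median of the list was 0.08 in 3xSR, 0.19 in MYC-OE, -0.04 in SRSF7-OE, 0.11 in SRSF3-OE and 0.02 in SRSF2-OE.

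Of 13 regulators of the family, 2 rose and 2 fell in 3xSR, 2 rose and 3 fell in MYC-OE, 4 rose and 1 fell in SRSF2-OE, 3 rose and 2 fell in SRSF3-OE, and 1 rose and 1 fell in SRSF7-OE. CDKN1A, the cell cycle inhibitor p21, rose in all 5 lines, by 1.08 in 3xSR, 0.83 in MYC-OE, 0.45 in SRSF7-OE, 1.07 in SRSF3-OE and 1.10 in SRSF2-OE. It went from 20.8 ± 1.65 CPM in 1xCtrl to 44.6 ± 2.32 CPM in SRSF2-OE (SD, n = 3). Of the other known p53 targets among the 10, BBC3 rose in 1 and PMAIP1 in 3 of the 5, and BAX in none. TP73, a p53 relative, fell by 0.89 in 3xSR and 1.11 in SRSF3-OE, and TP63, a relative of both and a marker of basal cells, by 0.36 in SRSF2-OE and 0.24 in MYC-OE, the latter lost in 1 of 17 alternatives. E2F1, a cell cycle transcription factor, fell by 0.31 in MYC-OE, 0.42 in 3xSR and 0.41 in SRSF3-OE, the last call being lost in 3 of 17 alternatives and that in 3xSR in 1. FBXW7, part of a ubiquitin ligase known to act on MCL1, fell by 0.33 in SRSF7-OE, a call lost in 3 of 17 alternatives. Medians of the list lay between -0.03 and 0.10.

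**Figure D5:**
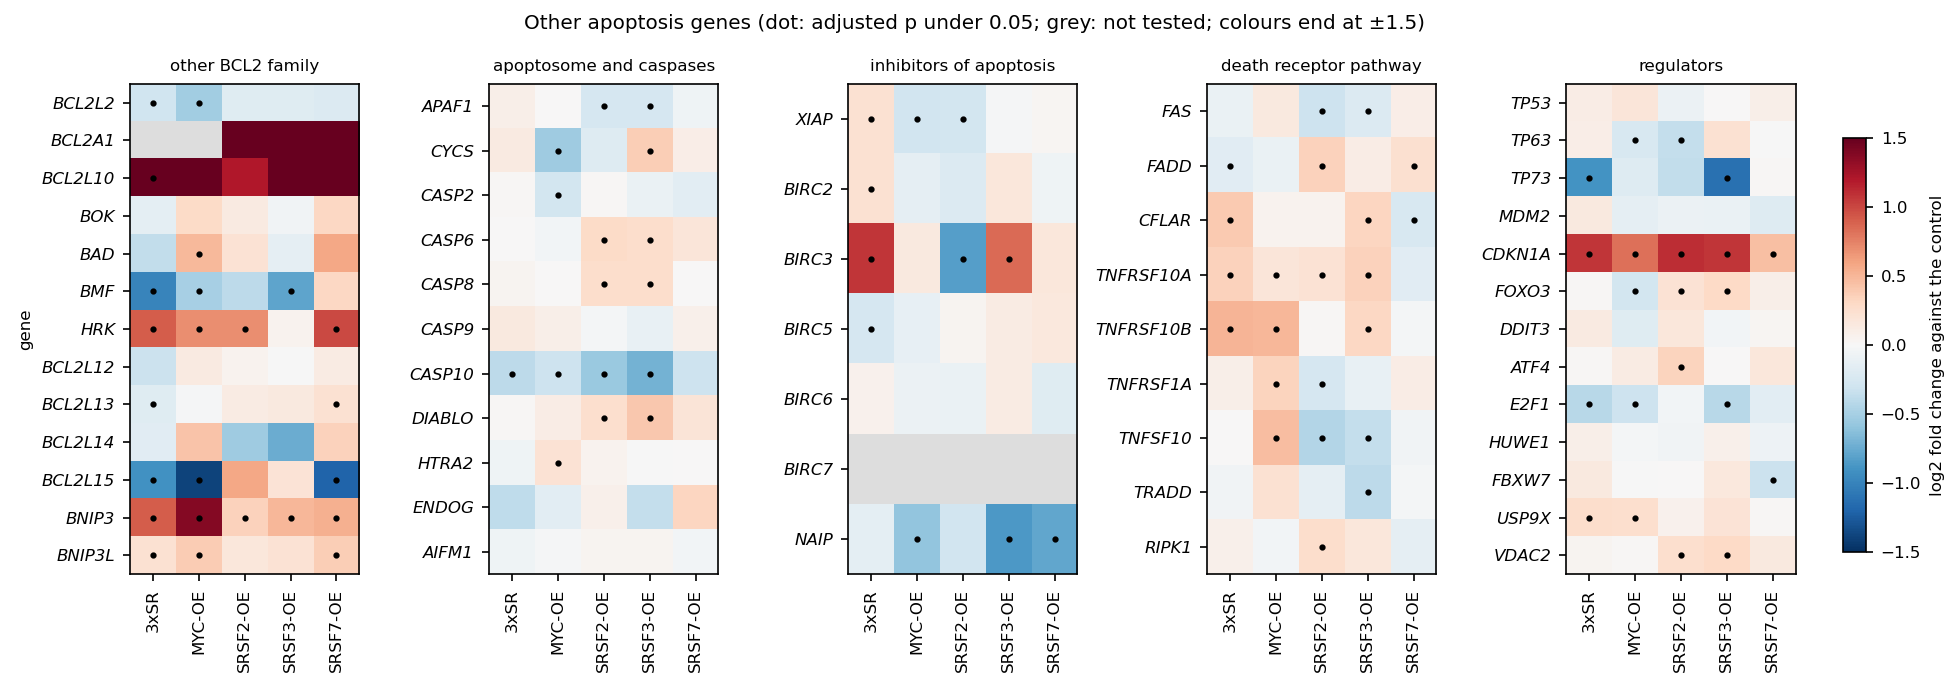
Log2 change against the control in each of the 5 lines for all genes of the 5 lists outside the 10, with a dot where the adjusted p was under 0.05, grey where a gene was not tested, and colours ending at 1.5 in either direction. CDKN1A and BNIP3 are higher in all 5 lines, BIRC3 is higher in 3xSR and SRSF3-OE and lower in SRSF2-OE, and the colours of BCL2A1 and BCL2L10 rest on few counts.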

How the data were processed

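Gene-level read counts of 21 libraries of HCC1806 cells were used, from polyA-selected stranded libraries sequenced in pairs on a NovaSeq, per the labels' protocols. The authors deposited whole-number counts per gene in 2 tables, of 9 and of 12 libraries. The submitters' processing notes name Trimmomatic 0.39, STAR, StringTie 2.1.3b and the build GRCh38.p13. Which tool made the counts, its strand setting and the annotation release are not given in the sources used here. Each table lists 60668 identifiers, of which 60340 had a symbol and 58561 were in GENCODE 29, 41806 of them with the same version. That release gave positions, exon overlaps, length and GC content.

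The titles in the labels gave each library's group. Tests were run on the counts with edgeR 4.0.16 under R 4.3.3 (filterByExpr with a minimum count of 10 and a total of 15, TMM, robust glmQLFit, quasi-likelihood F test, both directions). Each table had 1 fit over all its groups, with Benjamini-Hochberg adjustment over all genes tested and a threshold of 0.05. For differences between effects, all 21 libraries entered 1 fit. SE is the absolute log2 change divided by the square root of F. The fit was tested on counts simulated for SRSF3-OE against 1xCtrl over 22536 genes, of which 200 were changed 2-fold. It called 48% of these with the right sign, 82.2% of those at 5 CPM or more, and 10.3% of its calls were false. It called 0 genes where none had changed. The simulation held only the libraries of SRSF3-OE and 1xCtrl and no GC gap between them. Its planted changes were all 2-fold, and among the members called against a control only BIK in SRSF7-OE changed that much. The false share was above the threshold of 0.05. Figures of the simulation may therefore not carry over to the fits over all groups of a table or to smaller changes.

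Alternatives were RLE, upper-quartile and total-count scaling, no filter, at least 10 counts in every library, DESeq2 1.42.0, limma-voom (limma 3.58.1), only the groups compared, a replicate block, removal of each library's GC trend (median deviation in 50 bins of transcript GC content, as an offset) without and with that block, and leaving out each library. For genes of the other lists they were added after seeing the data. Total counts ran from 143269192 to 303323552 per library. In the 21 pairs of replicates chi-square per degree of freedom was at least 17.1, so no library was counted as a copy of another.

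The 10 genes and the other lists were chosen with earlier results of these data known. All 10 genes are named. The text also names the genes of each other list with the highest and the lowest log2 change among those called in a line, the 4 overexpressed genes, and for each of the 10 the 2 genes with the most similar profile. Values of such genes in further lines were added beside them, and BCL2L2 and BCL2A1 were named after their values were seen. Isoforms were not analysed here, and 2 genes of 1 list are not reported here.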

Additional observations from a re-analysis of the deposited data

Results flagged for a closer look

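The change of a gene in 3xSR was set against its change in each single line in the joint fit over 21 libraries, and 12 of 30 differences passed edgeR's quasi-likelihood test with Benjamini-Hochberg adjustment. Each value is the log2 change in 3xSR against 3xCTL minus that in a single line against 1xCtrl, with its SE. The controls come from different tables, so table and control cannot be told apart in these differences. On the joint scale the controls did not overlap for BCL2L1, BAK1, BBC3, PMAIP1 and BID. The share of all genes without such overlap is not given here, so this is not read as particular to these genes. The 12 differences stand beside 21.9%, 17.8% and 24.6% of all genes called against the SRSF2-OE, SRSF3-OE and SRSF7-OE effects.

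BCL2L1, the gene of BCL-XL, rose in the single lines and not in 3xSR. Its difference was -0.58 ± 0.0949 against the libraries labelled SRSF2-OE (adjusted p 0.000167), -0.47 ± 0.0949 against SRSF3-OE (0.00159) and -0.45 ± 0.0949 against SRSF7-OE (0.00169). BAK1 differed by -0.32 ± 0.105 from SRSF2-OE (0.0353) and by -0.51 ± 0.105 from SRSF3-OE (0.00178). BCL2L11 differed by -0.31 ± 0.0985 from SRSF3-OE (0.0359), though neither change passed on its own. BID differed by -0.48 ± 0.112 from SRSF7-OE (0.00332).

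BIK fell in SRSF3-OE and rose in SRSF7-OE, and 3xSR lay between, with differences of 0.51 ± 0.129 (adjusted p 0.00918) and -0.89 ± 0.129 (4.44e-05). MCL1, which rose in 3xSR and did not pass the test in SRSF7-OE, differed by 0.53 ± 0.0801 between them (6.67e-05). PMAIP1, which rose in 3xSR and did not pass in SRSF2-OE or SRSF7-OE, differed by 0.84 ± 0.132 (0.000107) and 0.45 ± 0.132 (0.0173).

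Of these 12, BAK1 against SRSF2-OE was called in 12 of 23 alternatives (adjusted p up to 0.114), BCL2L11 against SRSF3-OE in 15 (up to 0.137), PMAIP1 against SRSF7-OE in 16 (up to 0.170) and BIK against SRSF3-OE in 22 (0.0541 with only the 4 groups in the fit). The other 8 were called in all 23.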

How the results depend on the processing

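Of the 18 calls of a member against its control 10 held in every alternative run, 8 were lost in at least 1, and 11 of the 32 tests not called were called in at least 1. None changed sign with a call. Beside these, BAK1 in MYC-OE against 3xSR went from 0.04 to -0.17 with the GC trend removed and -0.17 with the block as well, and FADD in 3xSR from -0.17 to 0.00488 and 0.00518. With only the groups compared in the fit, members called went from 5 to 3 in SRSF3-OE, 3 to 1 in SRSF7-OE, 5 to 8 in MYC-OE against 3xSR, 3 to 5 in SRSF2-OE against SRSF3-OE, and 4 to 2 for the 3xSR effect against that of SRSF3-OE. Genes called in SRSF7-OE went from 4214 to 2251. With the GC trend removed, members called went from 3 to 5 in SRSF2-OE and from 3 to 6 for the 3xSR effect against that of SRSF2-OE, and genes called in SRSF7-OE to 7008. With the block as well these were 5, 6 and 6492. Why the counts moved was not tested. For most settings, here and with single libraries left out, the share of all genes called is not set beside the count of members. None of these counts is therefore read as particular to the family.

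Leaving out 1 library gave 2 to 5 members in 3xSR (5 without 3xCTL replicate 2), 3 to 5 in MYC-OE, 3 to 6 in SRSF2-OE (6 without 1xCtrl replicate 2), 3 to 6 in SRSF3-OE (3 without 1xCtrl replicate 1) and 1 to 6 in SRSF7-OE. In SRSF7-OE it was 6 without 1xCtrl replicate 2 and 1 without 1xCtrl replicate 1 or 3 or SRSF7-OE replicate 3. Between lines it gave 2 to 3 in SRSF2-OE against SRSF3-OE, 2 to 4 in SRSF2-OE against SRSF7-OE (2 without SRSF2-OE replicate 1 or SRSF7-OE replicate 3) and 3 to 5 in SRSF3-OE against SRSF7-OE (3 without SRSF7-OE replicate 1 or any SRSF3-OE library). It gave 2 to 6, 3 to 6 and 4 to 7 for the 3xSR effect against those of SRSF2-OE, SRSF3-OE and SRSF7-OE, the 6 of the first without replicate 2 of either control. Genes called in SRSF7-OE ran from 2685 without SRSF7-OE replicate 3 to 7324 without 1xCtrl replicate 2.

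Same-numbered deviations had r from -0.362 to 0.103, so no pairing by replicate number was seen. This does not show that same-numbered libraries were handled apart. With the replicate block members called were 3, 4, 5, 3 and 3 in 3xSR, MYC-OE, SRSF3-OE, SRSF2-OE and SRSF7-OE, and genes called went from 6727 to 6145, 8182 to 7767, 7108 to 6343, 5733 to 4934 and 4214 to 3362. The block left BAK1 (3xSR effect against SRSF2-OE, adjusted p 0.0502), BCL2 (SRSF2-OE against SRSF3-OE, 0.0636), BBC3 (SRSF2-OE against SRSF7-OE, 0.0682) and BID (SRSF3-OE against SRSF7-OE, 0.0587) without a call. In SRSF2-OE 2823 genes rose and 2910 fell, against 2241 and 3860 with total counts alone. In SRSF3-OE 3666 rose and 3442 fell, against 2296 and 4861 with total counts alone and 2546 and 4047 with upper-quartile scaling. Total counts alone moved the median of all genes in SRSF3-OE from -0.0251 to -0.136. BBC3 had as few as 93 counts, in 3xCTL replicate 2. Counting error is only part of the spread, since chi-square per degree of freedom was at least 17.1 in the pairs of replicates. No molecular identifiers mark which reads came from 1 molecule.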
